A study of Mus musculus and Homo sapiens with 67 samples.

Results

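The genes described here make cholesterol and fatty acids and sense sterols, and they were followed in pancreatic cancer cells and tumours given tazemetostat, RMC-6236 or both. The set was chosen by name from the gene symbol columns, with earlier results of these data known. It has 34 human members, of 60564 genes in each human table. In mouse it has 35, of 55335 genes, because Cyp51 stands for CYP51A1, and Scd1 and Scd2 stand for SCD. It has 18 sterol enzymes, 10 fatty acid enzymes (11 in mouse) and 6 regulators or sterol carriers. After a filter on low values, 33 members were tested in PSN1, 34 in SW1990 and 35 in each mouse table. FADS2 was the member under the filter, with a mean of 0.155 FPKM in PSN1 control cells and 0.514 FPKM with the combination.

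PSN1 and SW1990 are human pancreatic cancer lines, and KPC cells come from a mouse model of pancreatic cancer. KPC orthotopic tumours, grown in the mouse pancreas, were studied too. Their column headings read KPC1199 where those of the cells read KPC, and whether they grew from the cultured line is not given. Each of these 4 systems has 4 arms, which received a control, tazemetostat alone, RMC-6236 alone or both drugs (the combination). The control was the solvent DMSO in cells and vehicle in mice. Cells had 3 samples per arm and tumours 4, which gave 52 samples. Tazemetostat inhibits EZH2, the methyltransferase of histone H3 lysine 27, and RMC-6236 inhibits the active form of RAS proteins. Each cell system is 1 line, and the labels used here give no dose, time, host strain or animal age. They do not say whether samples of an arm came from separate cultures, so p-values in cells measure the spread between these samples. Subcutaneous KPC tumours are not analysed here.

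Cholesterol is built from acetyl-CoA through mevalonate, the isoprenoids, squalene and lanosterol. Fatty acids are built from the same acetyl-CoA by acetyl-CoA carboxylase and fatty acid synthase, then elongated and desaturated. Both branches are switched on by SREBP transcription factors, the products of SREBF1 and SREBF2. When sterols are scarce, SCAP carries SREBPs to the Golgi to be cut and released, and when sterols are plentiful INSIG proteins hold them in the endoplasmic reticulum. INSIG1 is itself a target of SREBPs.

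Values are FPKM, fragment counts scaled by transcript length and by the mapped fragments of the library. Changes are differences of mean log2(FPKM + 1), tested with limma, with p-values adjusted by the Benjamini-Hochberg method over all genes tested in a system. A gene is said to rise or fall where adjusted p was under 0.05. The 4 systems were normalized separately, so levels were not compared between them and differences in response between systems were not tested. The contrasts within a system share arms. Read depth is unknown, because FPKM keep no counts. Between 11489 and 13414 genes reached 1 FPKM in a library. DUSP6, a feedback target of RAS signalling, fell with RMC-6236 in all 4 systems, with log2 changes of -3.43 in PSN1, -4.89 in SW1990, -2.76 in KPC cells and -2.46 in tumours. EZH2 itself fell with RMC-6236 in the cells (-0.64, -0.61 and -0.81), had a change of 0.01 in tumours (adjusted p = 0.94) and rose with tazemetostat in SW1990 (0.41). EZH2 RNA does not measure inhibition of the enzyme, so the action of tazemetostat was not checked here. All 6 epithelial markers reached 1 FPKM in every PSN1 and SW1990 library. The share of FPKM from the mitochondrial genome ranged from 26.2% to 28.0% over SW1990 control and tazemetostat libraries, and from 31.6% to 32.5% over those with RMC-6236, with 9.41% to 10.3% and 11.2% to 12.3% for KPC cells. In PSN1 it was 22.7% to 23.2% in control, 23.5% to 23.9% with tazemetostat, 24.2% to 25.2% with RMC-6236 and 26.1% to 26.9% with the combination. The part of these shifts in the results below was not tested.

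**Figure D1:**
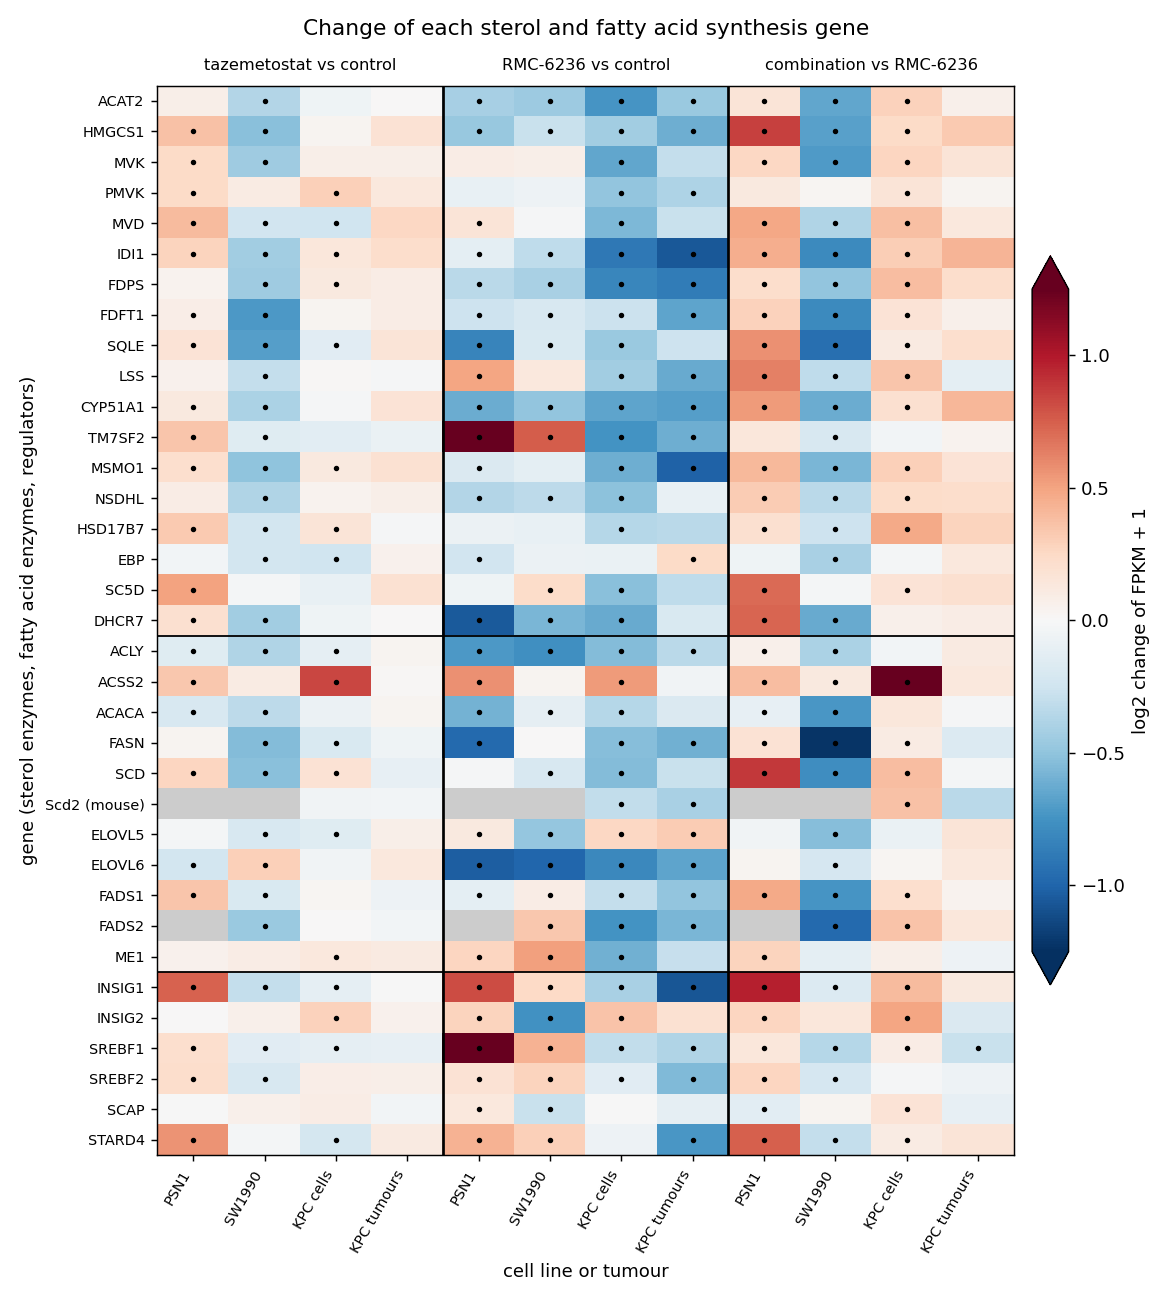
Log2 change of each member for tazemetostat against control, RMC-6236 against control and combination against RMC-6236 (3 blocks), with the 4 systems as columns in each block and the members as rows. Colour gives the change in mean log2(FPKM + 1), limited at ±1.25, a dot marks adjusted p under 0.05, and grey cells were not tested or do not exist in that species. The column for KPC cells with RMC-6236 has 29 of its 35 cells blue with a dot, where 35.8% of all genes fell. In the combination block, PSN1 and SW1990 carry opposite colours for 21 of the 23 members called in both with no overlap between arms. In that block 24.1% of all genes rose and 30.1% fell in PSN1, against 29.8% and 18.3% in SW1990. The joint count was not made over all genes.

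RMC-6236 lowered most of both branches in KPC cells. In that line 29 of 35 members fell and 3 rose, with a median change of -0.50, where 35.8% of all genes tested fell and 37.9% rose and the median of all genes was 0.02. Sterol enzymes fell in 17 of 18 (median -0.54), fatty acid enzymes in 9 of 11 (-0.54) and regulators in 3 of 6. Ebp, Scap and Stard4 were the members without a call, and the 3 that rose were Acss2, Elovl5 and Insig2. Leaving out any 1 library ended none of these calls.

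Idi1, the isomerase that supplies the reactive isoprenoid unit, had the largest fall in KPC cells. It stood at 23.6, 23.3 and 25.2 FPKM in control libraries and 12.3, 12.3 and 12.9 FPKM with RMC-6236, a change of -0.89 (SE 0.04, adjusted p = 8.3e-10). Fdps, the synthase that joins those units into farnesyl diphosphate, went from 87.9 ± 2.5 to 49.6 ± 1.3 FPKM (SD, n = 3 per arm; log2 change -0.81, SE 0.03, adjusted p = 7.8e-11). Every RMC-6236 library lay below every control library for both genes. Cyp51, which demethylates lanosterol, was the most abundant sterol enzyme and fell from 183 ± 1.2 to 115 ± 2.0 FPKM. On the fatty acid side Elovl6, the elongase that makes stearate, had 20.2, 20.0 and 19.8 FPKM in controls and 11.5, 10.9 and 10.8 FPKM with the drug (log2 change -0.80, SE 0.04, adjusted p = 4e-10), with no overlap. Fasn, the fatty acid synthase, fell by 0.54 on the log2 scale, from 64.1 ± 1.7 to 43.9 ± 0.48 FPKM. Acss2, which makes acetyl-CoA from acetate, went the other way, from 2.28, 2.21 and 2.38 FPKM to 3.83, 3.67 and 3.78 FPKM (log2 change 0.53, SE 0.04, adjusted p = 4.9e-08).

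The promoters of 5 of these mouse genes are printed because 4 of them fell together with RMC-6236 in KPC cells and Acss2 rose. They come from RefSeq, build GRCm38.p6, and run 5′ to 3′ from 250 bases before the transcript start to 50 after it. Capitals mark 3 motifs on either strand, which can overlap: TCACNCCAC, the sterol regulatory element, CACGTG, the E-box that SREBP1 can also bind, and CCAAT, the box of the cofactor NF-Y. GGGCGG, the GC box, was searched as well and is left in lower case. The intervals are chr13:119690101-119690400, chr13:8885356-8885655 and chr5:28071162-28071461 on the plus strand, chr11:120824498-120824797 on the minus strand and chr2:155517793-155518092 on the plus strand.
Hmgcs1: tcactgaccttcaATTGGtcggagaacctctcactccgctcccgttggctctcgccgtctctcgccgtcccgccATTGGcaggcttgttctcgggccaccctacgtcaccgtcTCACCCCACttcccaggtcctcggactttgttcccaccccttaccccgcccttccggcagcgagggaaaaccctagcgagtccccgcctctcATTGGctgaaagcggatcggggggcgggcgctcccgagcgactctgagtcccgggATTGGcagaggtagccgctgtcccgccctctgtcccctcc
Idi1: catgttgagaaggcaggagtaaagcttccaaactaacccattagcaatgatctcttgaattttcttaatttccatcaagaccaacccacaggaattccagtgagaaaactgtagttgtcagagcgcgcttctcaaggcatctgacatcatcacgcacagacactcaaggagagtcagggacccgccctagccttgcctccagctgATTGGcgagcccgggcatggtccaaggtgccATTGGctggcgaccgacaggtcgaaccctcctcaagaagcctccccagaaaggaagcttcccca
Insig1: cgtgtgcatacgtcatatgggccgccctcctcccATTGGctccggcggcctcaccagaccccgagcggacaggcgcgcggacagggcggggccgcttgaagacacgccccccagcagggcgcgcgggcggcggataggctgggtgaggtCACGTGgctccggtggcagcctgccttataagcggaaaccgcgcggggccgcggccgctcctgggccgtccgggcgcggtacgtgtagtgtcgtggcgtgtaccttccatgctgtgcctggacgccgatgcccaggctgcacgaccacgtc
Fasn: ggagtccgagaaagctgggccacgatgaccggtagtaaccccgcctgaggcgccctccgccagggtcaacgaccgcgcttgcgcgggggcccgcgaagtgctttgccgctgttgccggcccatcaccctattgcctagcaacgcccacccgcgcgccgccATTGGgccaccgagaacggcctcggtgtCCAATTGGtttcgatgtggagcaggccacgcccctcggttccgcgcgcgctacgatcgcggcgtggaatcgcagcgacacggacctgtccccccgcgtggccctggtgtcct
Acss2: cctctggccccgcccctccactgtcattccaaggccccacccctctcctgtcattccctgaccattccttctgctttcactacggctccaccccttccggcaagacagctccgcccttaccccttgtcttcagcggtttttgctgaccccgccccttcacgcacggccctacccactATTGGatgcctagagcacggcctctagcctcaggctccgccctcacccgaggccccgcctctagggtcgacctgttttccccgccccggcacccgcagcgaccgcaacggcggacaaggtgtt

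The Hmgcs1 promoter, of the synthase of HMG-CoA, holds TCACNCCAC at base -137 from the start, and the Insig1 promoter holds CACGTG at -101. In all, 28 of the 35 mouse members matched the RefSeq table, with 37 promoters between them. TCACNCCAC was found in 1 of those 37 (2.703%), against 1.242% of all 32851 promoters of 300 bases. CACGTG was in 7 (18.92%, against 7.15%), CCAAT in 24 (64.86%, against 37.41%) and GGGCGG in 27 (72.97%, against 35.66%). By gene, CACGTG was found for 6 of the 28, CCAAT for 23 and GGGCGG for 23. Some promoters of 1 gene overlap, and those of Scap hold the same CACGTG site. These are matches of letters, and binding was not measured.

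**Figure D2:**
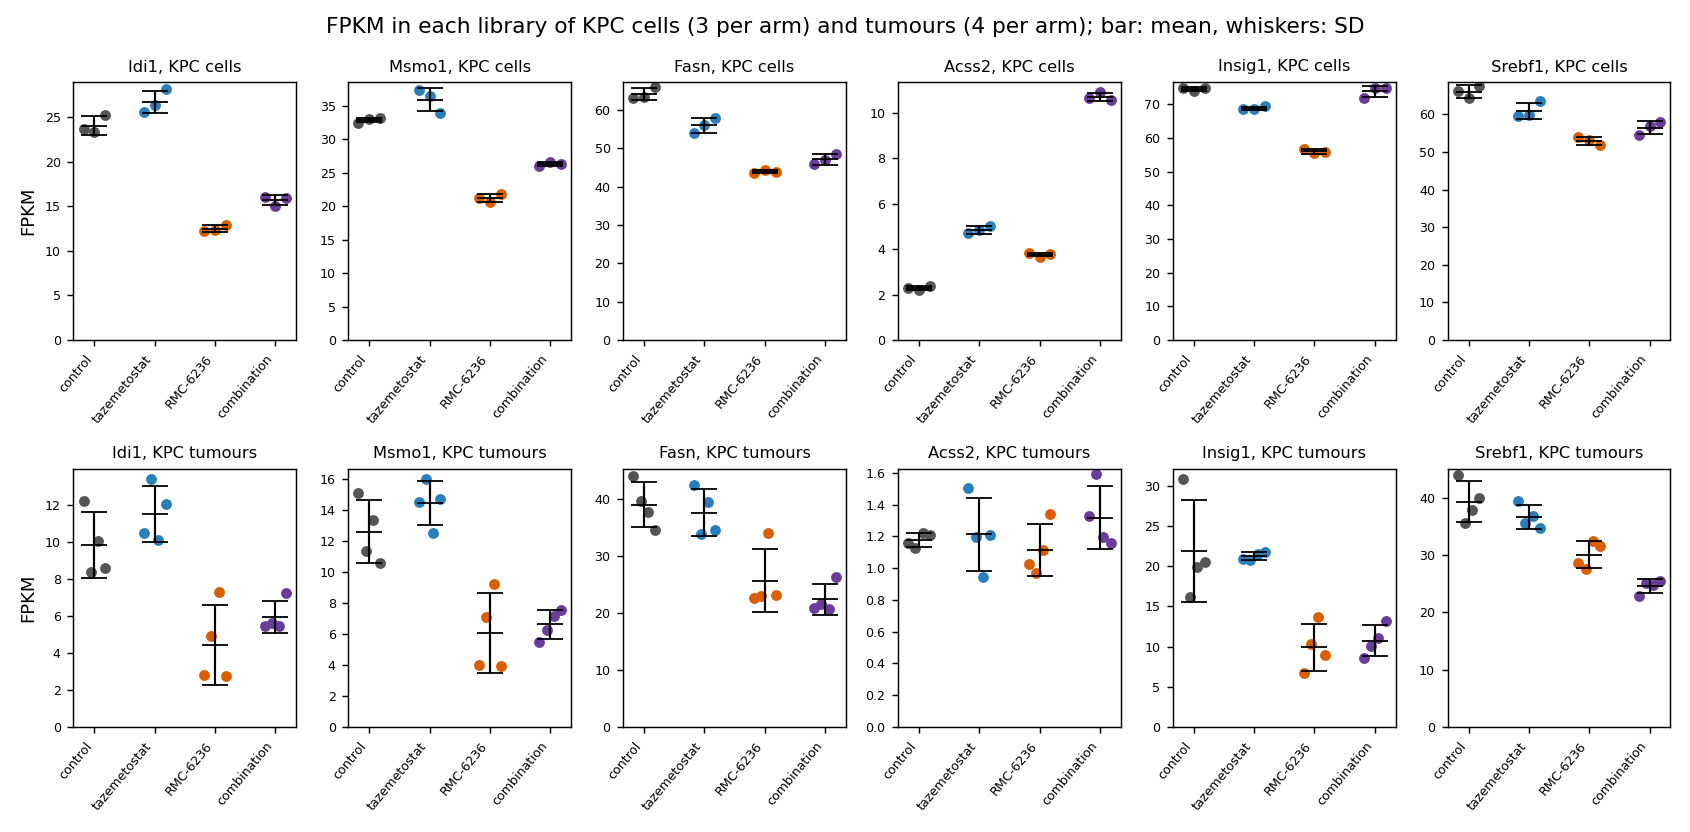
FPKM per library for Idi1, Msmo1, Fasn, Acss2, Insig1 and Srebf1 in KPC cells (top row, 3 libraries per arm) and KPC orthotopic tumours (bottom row, 4 per arm). Points are libraries, bars are means and whiskers are SD. Acss2 with the combination stood at 10.7 FPKM in cells, against 2.29 FPKM in control, and at 1.32 FPKM in tumours, against 1.18 FPKM.

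In KPC tumours RMC-6236 also lowered members of both branches. 20 of 35 members fell and 2 rose (median -0.38), where 19.2% of all genes fell, 20.3% rose and their median was 0.01. Of the 20 that fell, 19 had also fallen in KPC cells, an overlap that was not counted over all genes. The count was 24 lower and 1 higher without RMC-6236 replicate 3, and 18 lower and 2 higher without control replicate 1. RMC-6236 replicate 3 was the highest library of its arm for 29 of 35 members, and control replicate 1 was the highest of its arm for 30.

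Insig1 had the largest fall in tumours. It stood at 30.9, 16.2, 20.0 and 20.5 FPKM in control tumours and 6.74, 10.3, 13.7 and 8.91 FPKM with RMC-6236 (log2 change -1.07, SE 0.19, adjusted p = 0.00062), and all 4 treated tumours lay below all 4 controls. Idi1 stood at 12.2, 8.38, 10.1 and 8.56 FPKM in controls and 2.78, 4.90, 7.30 and 2.72 FPKM with the drug (log2 change -1.06, SE 0.21, adjusted p = 0.0013). Msmo1, a sterol C4 demethylating oxidase, had 15.1, 11.4, 13.3 and 10.6 FPKM and 3.95, 7.08, 9.19 and 3.95 FPKM (log2 change -1.01, SE 0.20, adjusted p = 0.0012). For both enzymes the groups were apart, although the treated tumours differed among themselves by more than the controls did. Hmgcs1 and Fdps also fell (-0.61, adjusted p = 0.014, and -0.88, adjusted p = 0.0095), but their groups overlapped. Sqle, the squalene epoxidase, fell in KPC cells and had 8.47, 20.3, 24.6 and 11.8 FPKM in treated tumours against 23.6, 13.6, 18.0 and 19.1 in controls, a change of -0.26 (95% interval -0.80 to 0.28, adjusted p = 0.44).

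Sterol enzymes fell in 10 of 18 in tumours (median -0.43), fatty acid enzymes in 6 of 11 (-0.33) and regulators in 4 of 6 (-0.47). Fasn had 44.0, 39.6, 37.7 and 34.5 FPKM in controls and 22.5, 22.8, 33.9 and 23.1 FPKM with RMC-6236 (log2 change -0.60, SE 0.12, adjusted p = 0.0016), with 3 treated tumours close together and replicate 3 above them. Srebf1 fell from 39.4 ± 3.6 to 30.1 ± 2.3 FPKM (SD, n = 4 per arm; log2 change -0.38, SE 0.07, adjusted p = 0.00073) and Srebf2 from 45.4 ± 5.1 to 31.1 ± 7.6 FPKM (log2 change -0.56, SE 0.13, adjusted p = 0.0046). Stard4, a sterol carrier protein, fell by 0.73 on the log2 scale. The 2 that rose were Elovl5, the elongase of polyunsaturated fatty acids, from 19.1 ± 0.72 to 24.3 ± 3.7 FPKM, and Ebp, the sterol isomerase, from 15.8 ± 0.33 to 19.0 ± 2.8 FPKM. Ebp lost its call without RMC-6236 replicate 3 (adjusted p = 0.067), Acat2 without control replicate 1 (0.068) and Cyp51 without RMC-6236 replicate 4 (0.097). Among all fits that leave out 1 library, the calls of Ebp, Acat2 and Cyp51 were lost in 2, 4 and 4.

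These tumours are mixtures of cells, and marker genes of other cell types moved with the drug. The summed FPKM of 6 epithelial tumour cell markers, all 6 detected, was 3111 to 3882 in control, 2812 to 5153 with tazemetostat, 1445 to 2022 with RMC-6236 and 840 to 1399 with the combination. Control tumours summed to 867 to 1177 over 10 of 10 fibroblast markers, and RMC-6236 tumours to 3025 to 4044. Over 7 of 7 macrophage markers the control tumours summed to 423 to 544, and the RMC-6236 tumours to 1081 to 1548. With the combination these sums were 3369 to 3958 and 1408 to 1951. Combination replicate 3 had an adipocyte marker sum of 254.5, against 5.71 to 35.1 in the other tumours, and combination replicate 4 had an acinar sum of 2708 and an islet sum of 725.7. Acinar sums were also high in combination replicates 1 and 2, at 537.9 and 960.3, against 5.25 to 278.8 outside the combination arm. Endothelial sums were 17.3 to 26.6 with the combination and 6.83 to 12.6 in the other arms. T cell sums were 1.44 to 2.15 with the combination and at most 0.763 elsewhere, and none of 6 T cell markers reached 1 FPKM in any tumour. Marker sums also differed between arms in cultured KPC cells. There the median epithelial sum was 3392 in control, 4903 with tazemetostat and 2869 with RMC-6236. Control and RMC-6236 medians were 41.8 and 67.8 for fibroblast markers, and 15.2 and 9.52 for macrophage markers. In bulk tissue, fewer cells of a type and less RNA per cell cannot be told apart, and the part of these shifts in the tumour results was not tested.

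PSN1 cells answered RMC-6236 unevenly. 16 of 33 members fell and 12 rose (median -0.09), where 34.6% of all genes fell, 45.8% rose and the median was 0.08. With libraries rescaled by the median ratio, 18 fell and 9 rose. Among sterol enzymes 11 fell and 3 rose of 18, while all 6 regulators rose. The sterol enzymes that rose were MVD, LSS and TM7SF2, and the fatty acid enzymes that rose were ACSS2, ELOVL5 and ME1.

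DHCR7, the reductase of the last step of cholesterol synthesis, had the largest fall in PSN1, from 28.7, 29.2 and 27.9 FPKM to 13.7, 13.5 and 12.6 FPKM (log2 change -1.05, SE 0.04, adjusted p = 3.5e-11). ELOVL6 stood at 9.23, 9.50 and 9.76 FPKM in control and 4.14, 3.91 and 4.35 FPKM with the drug (log2 change -1.03, SE 0.04, adjusted p = 8.4e-11). FASN went from 87.2, 85.3 and 87.4 FPKM to 42.9, 45.1 and 43.1 FPKM (log2 change -0.97, SE 0.02, adjusted p = 2.9e-13). Each of these genes kept its treated libraries well below its controls. SQLE fell from 26.2 ± 0.87 to 14.4 ± 0.58 FPKM (SD, n = 3 per arm; log2 change -0.82, SE 0.04, adjusted p = 2.5e-10), whereas SCD, the stearoyl-CoA desaturase, had 66.1 ± 1.3 and 65.4 ± 0.38 FPKM (-0.01, 95% interval -0.06 to 0.03).

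The regulators of PSN1 rose while many enzymes fell. SREBF1 stood at 8.61, 8.94 and 8.63 FPKM in control and 23.2, 23.9 and 24.4 FPKM with RMC-6236 (log2 change 1.35, SE 0.03, adjusted p = 5.6e-13). INSIG1 went from 11.6, 11.8 and 11.7 FPKM to 22.3, 21.3 and 20.6 FPKM (log2 change 0.82, SE 0.03, adjusted p = 2.7e-11). TM7SF2, a sterol C14 reductase, rose from 0.850, 1.30 and 0.918 FPKM to 3.63, 3.91 and 4.22 FPKM (log2 change 1.29, SE 0.07, adjusted p = 3.3e-09). No treated library of these genes reached down to a control library. TM7SF2 stood near the 1 FPKM filter in control, and its RMC-6236 libraries alone met that filter. LSS, the lanosterol synthase, rose from 12.1 ± 0.14 to 17.4 ± 0.53 FPKM. The calls of MVD, ELOVL5 and FADS1, a fatty acid desaturase, were lost with single libraries left out, at adjusted p up to 0.091 (without control replicate 1), 0.052 (without control replicate 1) and 0.05 after rounding (without control replicate 2).

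SW1990 also had members that fell and members that rose. 16 of 34 members fell and 9 rose (median -0.11), where 41.7% of all genes fell, 30.7% rose and the median was -0.06. Both counts were near the shares of all genes. With libraries rescaled, 15 fell and 13 rose, and the share of higher genes among all those called went from 42.4% to 52.2%. ELOVL6 fell most, from 8.90, 11.2 and 10.5 FPKM to 4.14, 5.15 and 4.61 FPKM (log2 change -0.99, SE 0.08, adjusted p = 6.6e-08). ACLY, which makes cytosolic acetyl-CoA from citrate, fell from 41.4, 42.3 and 40.9 FPKM to 22.6, 24.9 and 24.5 FPKM (log2 change -0.77, SE 0.04, adjusted p = 1.3e-09). For both genes the groups were apart. FASN had 72.8, 69.9 and 68.2 FPKM in control and 66.9, 72.4 and 72.6 FPKM with the drug, a change of 0.01 (95% interval -0.08 to 0.09). INSIG2 fell by 0.75 on the log2 scale, while TM7SF2 rose from 13.9 ± 0.63 to 24.2 ± 0.44 FPKM and SREBF1 from 9.31 ± 0.17 to 12.9 ± 0.85 FPKM (SD, n = 3 per arm). RMC-6236 replicate 1 was the low library for many members, with IDI1 at 23.0, 30.2 and 29.1 FPKM in the 3 treated libraries, and without it 15 members fell and 10 rose. The calls of ACACA, FADS1, SC5D and STARD4 were lost with single libraries left out, at adjusted p up to 0.096 (RMC-6236 replicate 1), 0.097 (RMC-6236 replicate 2), 0.11 and 0.11 (control replicate 1 for both).

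Across the 4 systems, 8 members fell with RMC-6236 in each: ACAT2, HMGCS1, IDI1, FDPS, FDFT1, CYP51A1, ACLY and ELOVL6. Of all genes, 34.6% fell in PSN1, 41.7% in SW1990, 35.8% in KPC cells and 19.2% in tumours. How many of all genes fell or changed direction across systems was not counted. In tumours the groups of Hmgcs1 and Fdps overlapped, and Acat2 and Cyp51 lost their calls with single libraries left out. ACAT2, the cytosolic acetoacetyl-CoA thiolase, overlaps TCP1 on the opposite strand, and whether counting used strand is not given, so its reads may hold some of TCP1. INSIG1, SREBF1, SREBF2 and TM7SF2 rose in both human lines and fell in both mouse systems. In KPC cells Srebf1 went from 66.3, 64.3 and 67.6 FPKM to 53.9, 53.3 and 51.8 FPKM (log2 change -0.31, SE 0.03, adjusted p = 2.1e-06) and Insig1 from 74.9, 73.9 and 74.8 FPKM to 56.8, 55.5 and 55.9 FPKM (log2 change -0.40, SE 0.02, adjusted p = 4.8e-09). Both genes had every treated library below every control library there.

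**Figure D3:**
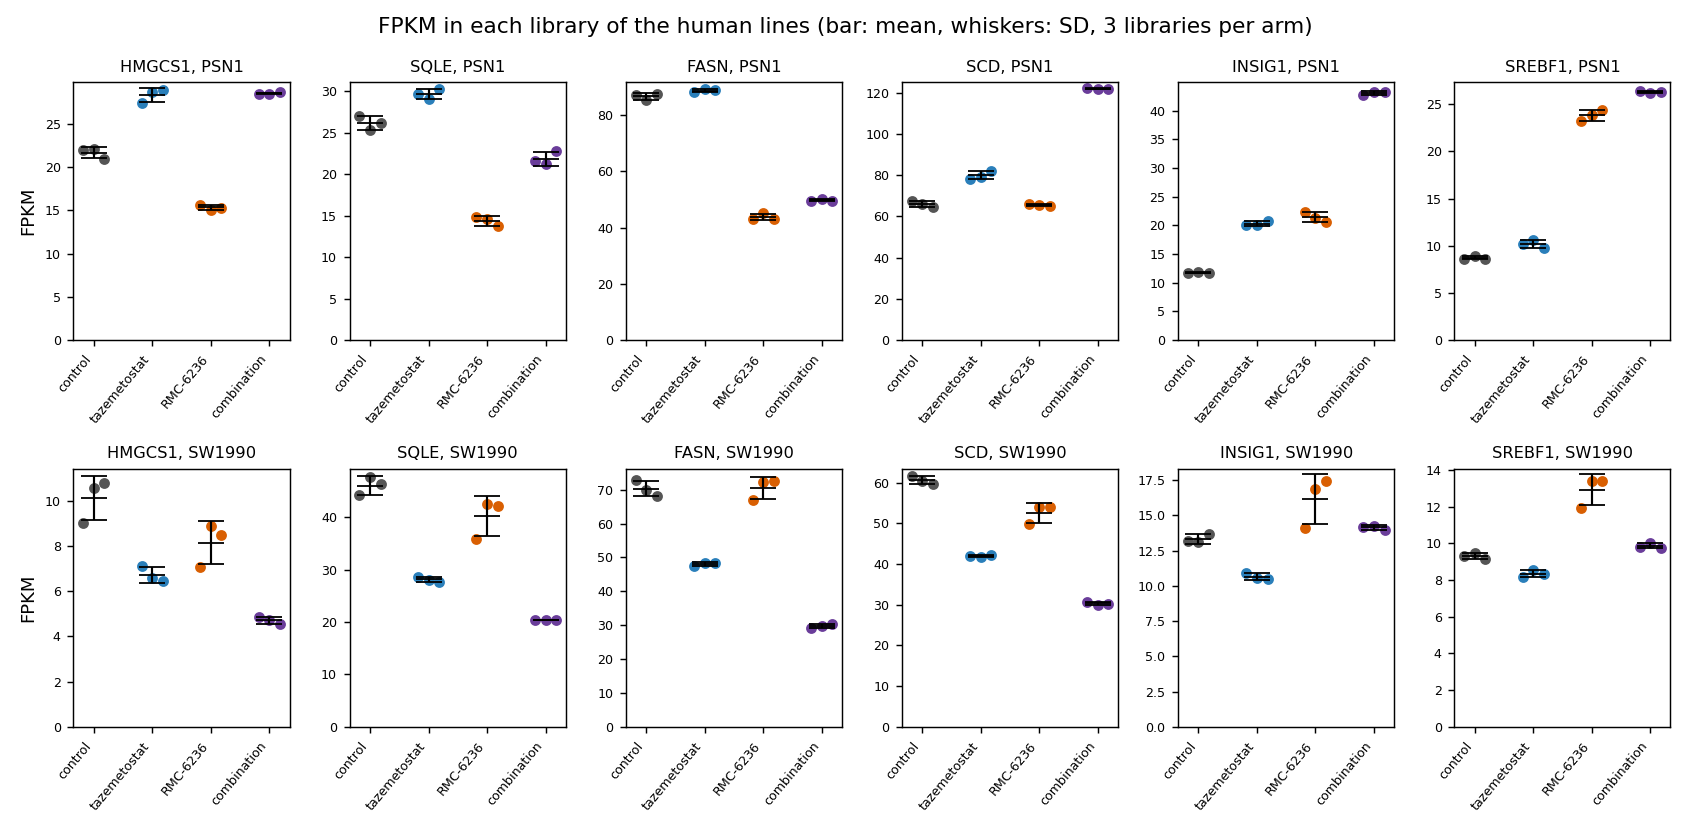
FPKM per library for HMGCS1, SQLE, FASN, SCD, INSIG1 and SREBF1 in PSN1 (top row) and SW1990 (bottom row), with 3 libraries per arm. Points are libraries, bars are means and whiskers are SD. SCD with the combination reached 122 FPKM in PSN1, above its control of 66.1 FPKM, and 30.3 FPKM in SW1990, below its control of 60.6 FPKM.

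With tazemetostat alone, most sterol enzymes rose in PSN1 and fell in SW1990. In PSN1 20 of 33 members rose and 3 fell (median 0.20), where 23.6% of all genes rose, 22.5% fell and the median was -0.0036. In SW1990 26 of 34 fell and 1 rose (median -0.30), where 14.4% of all genes fell, 23.1% rose and the median was 0.04. Of sterol enzymes 13 rose of 18 in PSN1, with none lower, and 16 of 18 fell in SW1990, with none higher. Fatty acid enzymes had 3 higher and 3 lower of 9 in PSN1 (median 0.03), while 7 of 10 fell and 1 rose in SW1990 (median -0.26). Of 6 regulators and sterol carriers, 4 rose in PSN1 and 3 fell in SW1990. Called both higher in PSN1 and lower in SW1990 were 16 members, a joint count that was not made over all genes.

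INSIG1 rose most in PSN1, from 11.6, 11.8 and 11.7 FPKM in control to 20.1, 20.0 and 20.8 FPKM with tazemetostat (log2 change 0.74, SE 0.03, adjusted p = 6.4e-10). STARD4 went from 3.53, 3.45 and 3.68 FPKM to 6.07, 5.82 and 5.31 FPKM (log2 change 0.56, SE 0.06, adjusted p = 1.2e-05) and SC5D, the lathosterol oxidase, from 3.02, 3.16 and 3.05 FPKM to 4.68, 5.05 and 4.65 FPKM (log2 change 0.51, SE 0.04, adjusted p = 7.6e-07). HMGCS1 had 22.0, 22.1 and 21.0 FPKM in control and 27.4, 28.7 and 28.9 FPKM with the drug (log2 change 0.37, SE 0.03, adjusted p = 2.6e-07). Treated and control libraries did not overlap for any of these genes. The 3 that fell were ACLY, ACACA, the acetyl-CoA carboxylase, and ELOVL6, each by 0.23 or less on the log2 scale. The calls of CYP51A1, FDFT1 and PMVK were lost with single libraries left out, at adjusted p up to 0.11 (tazemetostat replicate 2), 0.16 (tazemetostat replicate 3) and 0.054 (control replicate 2).

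FDFT1, the squalene synthase, fell most in SW1990, from 76.4, 75.6 and 74.8 FPKM to 45.2, 45.4 and 46.3 FPKM with tazemetostat (log2 change -0.72, SE 0.03, adjusted p = 3.2e-09). SQLE went from 44.2, 47.7 and 46.3 FPKM to 28.6, 28.1 and 27.7 FPKM (log2 change -0.69, SE 0.06, adjusted p = 8.1e-07). FASN went from 72.8, 69.9 and 68.2 FPKM to 47.5, 48.5 and 48.3 FPKM (log2 change -0.54, SE 0.04, adjusted p = 2.2e-07). These 3 genes had all treated libraries below all controls. SCD and HMGCS1 fell by similar amounts, -0.52 (SE 0.03) and -0.52 (SE 0.08). ELOVL6 was the member that rose, from 10.2 ± 1.2 to 12.7 ± 0.26 FPKM (SD, n = 3 per arm; log2 change 0.30, SE 0.08, adjusted p = 0.0079), the reverse of its small fall in PSN1. HSD17B7, SREBF1 and TM7SF2 lost their calls with single libraries left out, at adjusted p up to 0.06 (control replicate 3), 0.097 and 0.095 (tazemetostat replicate 1 for both).

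In KPC cells tazemetostat gave 9 higher and 9 lower of 35, where 18.6% of all genes rose and 25.5% fell. The share of members that fell was close to that of all genes, and the share that rose was somewhat above it. Acss2 rose most, from 2.28, 2.21 and 2.38 FPKM to 4.69, 4.83 and 5.03 FPKM (log2 change 0.83, SE 0.04, adjusted p = 7.2e-09). Pmvk, the phosphomevalonate kinase, went from 22.7 ± 0.56 to 28.1 ± 0.57 FPKM (SD, n = 3 per arm) and Insig2 from 17.1 ± 0.71 to 21.2 ± 0.47 FPKM. Mvd, which makes isopentenyl diphosphate, fell from 35.5 ± 1.4 to 29.7 ± 1.3 FPKM (log2 change -0.25, SE 0.05, adjusted p = 0.0011). Idi1, Me1, Msmo1 and Srebf1 lost their calls with single libraries left out, at adjusted p up to 0.069 (tazemetostat replicate 3), 0.079 (control replicate 1), 0.057 (tazemetostat replicate 1) and 0.055 (tazemetostat replicate 2). ACLY was lower with tazemetostat in all 3 cell systems, by 0.15 in PSN1, 0.37 in SW1990 and 0.12 in KPC cells on the log2 scale.

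In KPC tumours no member was called with tazemetostat by limma, and none had an unadjusted p under 0.05 (background 0.00% of all genes called). Idi1, for one, had 10.5, 13.4, 10.1 and 12.0 FPKM in treated and 12.2, 8.38, 10.1 and 8.56 FPKM in control tumours, a change of 0.22 with a 95% interval of -0.23 to 0.67. Acss2, which rose in the cells, had a change of 0.02 in tumours (95% interval -0.17 to 0.20).

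With tazemetostat added to RMC-6236, most members were higher in PSN1 and KPC cells and lower in SW1990. Against RMC-6236 alone the combination had 26 higher and 2 lower of 33 members in PSN1 (median 0.28), where 24.1% of all genes rose, 30.1% fell and the median was -0.03. A list of 3 sterol enzymes outside the members had 33.3% higher and 66.7% lower in the same PSN1 contrast. In KPC cells 26 of 35 were higher and none lower (median 0.20), where 20.3% of all genes rose, 28.5% fell and the median was -0.04. In SW1990 28 of 34 were lower and 1 higher (median -0.40), where 18.3% of all genes fell, 29.8% rose and the median was 0.04. Called higher in both PSN1 and KPC cells were 22 members, 19 of which were called lower in SW1990. Joint counts of this kind over all genes were not made.

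In PSN1 several enzymes that fell with RMC-6236 stood nearer to control, or above it, with the combination. HMGCS1 stood at 22.0, 22.1 and 21.0 FPKM in control, 15.6, 15.1 and 15.3 FPKM with RMC-6236 and 28.5, 28.5 and 28.7 FPKM with the combination (combination against RMC-6236 log2 change 0.86, SE 0.03, adjusted p = 5.5e-11). SCD stood at 65.8, 65.4 and 65.0 FPKM with RMC-6236 and 122, 122 and 122 FPKM with the combination (log2 change 0.89, SE 0.02, adjusted p = 3e-12), above all control libraries. INSIG1 had 42.7, 43.2 and 43.2 FPKM with the combination (log2 change 0.98, SE 0.03, adjusted p = 2.5e-11 against RMC-6236), the highest of its 4 arms. DHCR7 regained part of its loss, with 23.5, 21.9 and 22.5 FPKM (log2 change 0.72, SE 0.04, adjusted p = 5.1e-09), still below the control libraries. LSS, which RMC-6236 had raised, rose further to 27.6 ± 0.37 FPKM (SD, n = 3), 2.28 times its control mean. ACACA and SCAP were the 2 that fell, by 0.10 and 0.13 on the log2 scale. ACAT2, ACLY and HSD17B7 lost their calls with single libraries left out, at adjusted p up to 0.092 (RMC-6236 replicate 3), 0.13 (combination replicate 2) and 0.056 (combination replicate 1).

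In KPC cells the gain over RMC-6236 was broad and mostly small. Acss2 had 3.83, 3.67 and 3.78 FPKM with RMC-6236 and 10.6, 10.9 and 10.6 FPKM with the combination (log2 change 1.30, SE 0.04, adjusted p = 9.4e-11), which was 4.68 times the control mean. Insig2 rose from 22.3 ± 0.36 to 31.8 ± 1.4 FPKM (SD, n = 3 per arm; log2 change 0.50, SE 0.04, adjusted p = 4.2e-07) and Hsd17b7, a sterol ketoreductase, from 5.84 ± 0.21 to 8.52 ± 0.32 FPKM (log2 change 0.48, SE 0.04, adjusted p = 1.4e-06). Insig1 went from 56.8, 55.5 and 55.9 FPKM with RMC-6236 to 72.0, 74.9 and 74.8 FPKM with the combination, which overlapped its control values of 74.9, 73.9 and 74.8 FPKM. Scd2 was the most abundant member, with 362, 363 and 371 FPKM after RMC-6236 and 465, 489 and 459 FPKM after the combination (log2 change 0.37, SE 0.03, adjusted p = 2.3e-07). Scd1 and Scd2 are close copies, and reads may be split between them. Fasn, Pmvk, Srebf1 and Stard4 lost their calls with single libraries left out, at adjusted p up to 0.091 (combination replicate 3), 0.15 (RMC-6236 replicate 1), 0.14 (combination replicate 3) and 0.058 (RMC-6236 replicate 2).

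In SW1990 the combination stood lowest of the 4 arms for most of these genes. FASN, which had no call with RMC-6236 alone, stood at 66.9, 72.4 and 72.6 FPKM with RMC-6236 and 29.1, 29.6 and 30.2 FPKM with the combination (log2 change -1.22, SE 0.04, adjusted p = 7.6e-11). FADS2, the desaturase that starts polyunsaturated synthesis, stood at 12.5, 12.7 and 13.1 FPKM and 6.12, 5.98 and 6.01 FPKM (log2 change -0.97, SE 0.04, adjusted p = 9.1e-10). SQLE stood at 35.8, 42.5 and 42.2 FPKM and 20.3, 20.3 and 20.4 FPKM (log2 change -0.94, SE 0.06, adjusted p = 2e-08). The combination libraries of these genes lay below those of every other arm. IDI1 fell to 15.2 ± 0.52 FPKM from 27.4 ± 3.9 FPKM with RMC-6236 (SD, n = 3 per arm), and FDFT1 to 37.4 ± 0.55 from 65.9 ± 2.4 FPKM. ACSS2 was the member that rose (0.13), and its call was lost with single libraries left out, at adjusted p up to 0.11 (combination replicate 2). So were those of ELOVL6, INSIG1 and STARD4, at up to 0.15 (RMC-6236 replicate 2), 0.13 (RMC-6236 replicate 3) and 0.13 (RMC-6236 replicate 2), while 29 members fell and none rose without RMC-6236 replicate 1.

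In KPC tumours 1 member differed between the combination and RMC-6236 alone by limma, with 2 at an unadjusted p under 0.05, where 8.13% of all genes were called. Srebf1 was lower, at 22.8, 25.2, 24.7 and 25.5 FPKM against 28.7, 27.5, 32.4 and 31.7 FPKM (log2 change -0.28, SE 0.07, adjusted p = 0.022), with no overlap, and it lost its call without RMC-6236 replicate 4 (adjusted p = 0.07). Without RMC-6236 replicate 3 the count was 3, all higher. It was 2 without combination replicate 2 and 0 without RMC-6236 replicate 4, combination replicate 1 or combination replicate 3. Scd2 had 118, 141, 98.6 and 116 FPKM with the combination and 127, 160.3, 170.3 and 140.3 FPKM with RMC-6236 (log2 change -0.34, SE 0.11, adjusted p = 0.084), which did not pass.

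**Figure D4:**
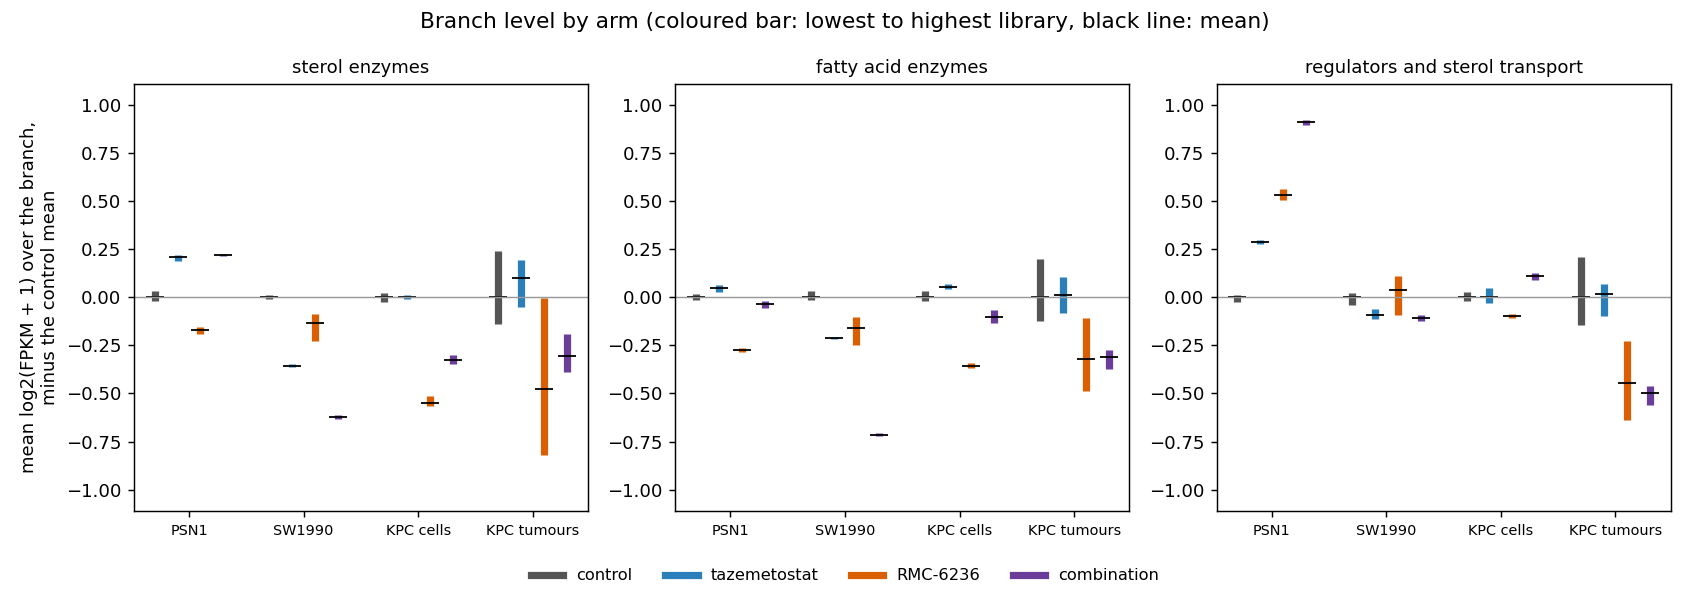
Mean log2(FPKM + 1) of the tested members of each branch (sterol enzymes, fatty acid enzymes, regulators and sterol transport) minus the control mean, for each arm of the 4 systems. Coloured bars run from the lowest to the highest library and black lines are means. With RMC-6236 the PSN1 regulators lay above their control and both groups of PSN1 enzymes below theirs.

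The interaction contrast asks whether the effect of tazemetostat differed with and without RMC-6236 on the log2 scale. It was positive for 18 of 33 members in PSN1 (background 9.80% higher and 13.8% lower) and for 22 of 35 in KPC cells (12.1% and 13.7%), with none negative in either. In SW1990 it was negative for 13 of 34 (6.19% lower, 9.03% higher) and positive for none, and in tumours it passed for none of 35 by limma, with none at an unadjusted p under 0.05 (1.86% of all genes called). Rescaling moved the share of higher genes among all called in PSN1 from 41.5% to 53.2%, and 19 members were then positive. SCD had the largest value in PSN1, 0.62 (SE 0.03, adjusted p = 1.7e-08), and Mvd in KPC cells, 0.62 (SE 0.07, adjusted p = 2.4e-05). FASN had the largest negative value in SW1990, -0.68 (SE 0.05, adjusted p = 2.7e-06). For FASN, SCD and SQLE the sign was positive in PSN1 and negative in SW1990, with Fasn, Scd1 and Sqle positive in KPC cells. The SW1990 count was 18 without RMC-6236 replicate 1. It was 7 without control replicate 3, combination replicate 2 or combination replicate 3, and 8 without control replicate 2, tazemetostat replicate 1, tazemetostat replicate 3 or RMC-6236 replicate 3. SQLE in SW1990 lost its call in 11 of the 12 fits that leave out 1 library (adjusted p up to 0.1, without tazemetostat replicate 1).

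Against control, the combination left 17 members higher and 9 lower in PSN1 (background 45.5% and 37.1%), 4 and 25 in SW1990 (38.3% and 40.9%), 5 and 25 in KPC cells (37.8% and 38.7%) and 2 and 20 in tumours (26.7% and 25.7%). ACAT2, FDPS, ACLY, FASN and ELOVL6 were lower in all 4. How many of all genes were lower in all 4 was not counted. INSIG1 rose in PSN1 by 1.79 and fell by 0.94 in tumours, where it stood at 8.51, 10.1, 11.1 and 13.2 FPKM. Acss2 in KPC cells had the largest rise of any member in that contrast and line, at 1.83 (SE 0.04). In tumours 16 members were called without control replicate 1, against 22 with it, and Acat2, Acly, Fads2, Fdps and Idi1 were among those that lost their calls without that tumour (adjusted p = 0.096, 0.13, 0.14, 0.096 and 0.066). Me1 lost its call without control replicate 2 (0.07). Among all fits that leave out 1 library, Fads2 lost its call in 7, Acly in 6, Acat2 and Fdps in 5 each, Me1 in 3 and Idi1 in 1. Against tazemetostat alone the combination had 13 higher and 13 lower members in PSN1 (background 43.8% and 36.1%), close to the shares of all genes. The counts were 6 and 23 in SW1990 (33.6% and 42.3%), 7 and 25 in KPC cells (39.0% and 37.3%) and 2 and 22 in tumours (24.7% and 26.3%).

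Other genes of the pathway were read from lists by role. Their counts with RMC-6236 stand against shares of all genes that rose and fell of 45.8% and 34.6% in PSN1, 30.7% and 41.7% in SW1990, 37.9% and 35.8% in KPC cells and 20.3% and 19.2% in tumours. NPC1, which lets cholesterol out of lysosomes, fell with RMC-6236 in PSN1 from 21.5 ± 0.019 to 9.60 ± 0.20 FPKM (log2 change -1.08, SE 0.03, adjusted p = 7.6e-13). ABCA1, which exports cholesterol, rose with RMC-6236 in PSN1 (log2 change 0.91, SE 0.04, adjusted p = 1.7e-10) and KPC cells (log2 change 0.77, SE 0.05, adjusted p = 1.2e-08). The sterol uptake, storage and export list had 6 genes higher and 5 lower with RMC-6236 among 12 in PSN1, 50% and 41.7%, close to the shares of all genes. For SW1990 the counts were 5 higher and 5 lower among 10, for KPC cells 7 and 3 among 10, and for tumours 3 and 2 among 12.

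LBR, a sterol C14 reductase and lamin B receptor, fell with RMC-6236 in all 4 systems, by 0.77 in PSN1, 0.81 in SW1990, 1.14 in KPC cells and 0.43 in tumours on the log2 scale. The lists further from the core pathway had no single direction, and their counts read against the shares of all genes given above. Of 5 genes of SREBP processing, 3 rose and 2 fell in PSN1, 1 rose and 2 fell in SW1990, 2 rose and 2 fell in KPC cells, and 1 fell in tumours. Of 7 genes that use isoprenoids, 3 rose and 1 fell in PSN1, against 2 and 2 in SW1990, 1 and 4 in KPC cells and 2 and 2 in tumours. Other lipogenesis genes rose in 4 and fell in 3 of 9 in PSN1 and rose in 2 and fell in 4 of 8 in SW1990. In mouse none rose and 4 of 6 fell in KPC cells, and 2 rose and 2 fell of 6 in tumours. Glycerolipid synthesis had 5 of 6 higher and 1 lower in PSN1, where 45.8% of all genes rose, and had 1 higher and 2 lower in SW1990, 3 higher in KPC cells and no call in tumours by limma, where none of 6 had an unadjusted p under 0.05.

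PDSS1, which uses isoprenoids to build the coenzyme Q tail, fell with RMC-6236 in every system, with log2 changes of -1.47 in PSN1, -1.52 in SW1990, -1.08 in KPC cells and -0.37 in tumours. MLXIPL, the carbohydrate-responsive regulator of lipogenesis, rose in PSN1 from 2.94, 2.58 and 2.48 FPKM to 26.7, 28.1 and 27.4 FPKM (log2 change 2.95, SE 0.04, adjusted p = 9.2e-15) and in SW1990 from 0.297 ± 0.037 to 1.72 ± 0.080 FPKM. In SW1990 its control was under the 1 FPKM filter, which MLXIPL passed through treated arms. GPAM, the first acyltransferase of glycerolipid synthesis, fell in PSN1 from 19.3 ± 1.0 to 5.52 ± 0.20 FPKM (log2 change -1.64, SE 0.04, adjusted p = 1.3e-12). Most fatty acid oxidation genes rose with RMC-6236 in the cells. In PSN1 9 of 10 rose and 1 fell, where 45.8% of all genes rose. SW1990 had 8 higher and 1 lower among 10 (30.7% of all genes rose), KPC cells had 9 higher and none lower among 9 (37.9%), and tumours had 4 higher and 1 lower among 9 (20.3%). The median changes of the list were 0.48, 0.28, 0.40 and 0.17, against 0.08, -0.06, 0.02 and 0.01 for all genes. HADHA, a subunit of the mitochondrial trifunctional protein, went from 47.9 ± 0.72 to 75.2 ± 2.1 FPKM in PSN1 and from 63.5 ± 1.3 to 96.9 ± 4.5 FPKM in SW1990.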

How the data were processed

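RNA was read from PSN1, SW1990 and KPC cells (12 libraries each) and 16 KPC orthotopic tumours. The deposited values are FPKM per gene, made by the authors; per the submitters' processing notes the tools were FastQC 0.11.2, STAR 2.5.3a and StringTie 1.3.1c, and hg38 is listed for mouse samples too, so the mouse build is not given in the sources used here. Libraries were stranded, per the labels' protocols, and whether counting used strand is not stated. Genes at 1 FPKM or more in at least 3 libraries (4 in tumours) were fitted as log2(FPKM + 1), with a pseudocount of 1, in limma 3.58.1 (R 4.3.3), with 1 mean per arm over all 4 arms and eBayes with trend and robust options. That left 13358 genes in PSN1, 12913 in SW1990, 12567 in KPC cells and 13545 in tumours, over which p-values were adjusted for each of 6 contrasts. A change on this scale understates that of low genes. The script was tested on simulated data. Unadjusted p-values and 95% intervals come from the same fits. Any member may be named, and of each other list up to 4 genes with the largest called change. DUSP6 was named as a check of RMC-6236, and EZH2 as the target of tazemetostat. The members and lists were chosen with earlier results of these data known. Alternatives were another pseudocount, no filter, rescaled libraries, a replicate block, plain eBayes, fewer arms and each library left out. Some genes of the other lists are not reported here. Subcutaneous tumours (15 of 67 samples) were not analysed here.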

Additional observations from a re-analysis of the deposited data

Results flagged for a closer look

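Among the 140 groups of 4 tumours, 1 for each member and arm, 7 held 1 tumour further from the other 3 than Dixon's 95% critical value allows. Chance alone gives about 1 in 20 such groups. The values of those tumours were 7.21 FPKM for Idi1 and 8.00 FPKM for Sc5d with the combination, 2.41 FPKM for Tm7sf2 and 18.0 FPKM for Scd1 with tazemetostat, and 10.5 FPKM for Scap with RMC-6236. Fasn had such a tumour in both RMC-6236 arms, at 33.9 FPKM with RMC-6236 alone and 26.3 FPKM with the combination.

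Members that were called in opposite directions in a pair of systems, with no overlap between arms in either, were counted for 3 contrasts. Each count is given out of the members called without overlap in both systems of the pair. The same count over all genes was not made, and the difference between systems was not tested. With tazemetostat against control there were 17 of 19 between PSN1 and SW1990. There were 5 of 12 between PSN1 and KPC cells (MVD, SQLE, INSIG1, SREBF1 and STARD4). Between SW1990 and KPC cells there were 5 of 13 (IDI1, FDPS, MSMO1, HSD17B7 and SCD). With RMC-6236 against control there were 4 of 21 between PSN1 and SW1990 (ELOVL5, FADS1, INSIG2 and SCAP). PSN1 had 6 of 24 against KPC cells and 7 of 14 against tumours. SW1990 had 9 of 22 against KPC cells and 6 of 9 against tumours. For the combination against RMC-6236 there were 21 of 23 between PSN1 and SW1990 and 19 of 20 between SW1990 and KPC cells. SCAP was the 1 of 23 between PSN1 and KPC cells. SREBF1 was the 1 of 1 between PSN1 and tumours and the 1 of 1 between KPC cells and tumours.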

How the results depend on the processing

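No call of a named gene reversed direction under any setting tried. The number of members called stayed within 1.5 times under a pseudocount of 0.1, rescaled libraries, limma without trend and robust options, and fits of only the compared arms, which were not run for the interaction. Without the filter on low values it did so too, except for the SW1990 interaction, which went from 13 to 8 members. Replicate numbers were not treated as pairs, because the labels do not say that they mark a shared culture, animal or day. Same-numbered libraries of different arms had correlations of deviations from -0.05 to 0.16 in PSN1, -0.16 to 0.39 in SW1990, -0.09 to 0.13 in KPC cells, with -0.40 to 0.34 for tumours. For libraries of different number they were -0.15 to 0.09, -0.33 to 0.20, -0.10 to 0.14 and -0.41 to 0.46. With the replicate block the largest move was in tumours for the combination against tazemetostat, from 24 to 21 members. Of the 1122 gene results, 13 lost and 10 gained a call under the block, 58 lost one without the filter, and 14 lost and 27 gained one with rescaling.

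Leaving out 1 library gave these ranges. In KPC cells they were 32 to 33 members for RMC-6236 against control, 16 to 20 for tazemetostat, 28 to 31 for the combination, 23 to 27 for the combination against RMC-6236, 28 to 32 against tazemetostat and 19 to 22 for the interaction. In tumours they were 19 to 25 for RMC-6236, 0 for tazemetostat, 16 to 22 for the combination, 0 to 3 for the combination against RMC-6236, 19 to 27 against tazemetostat and 0 for the interaction. In PSN1 they were 26 to 28 for RMC-6236, 20 to 24 for tazemetostat, 26 to 28 for the combination, 26 to 29 for the combination against RMC-6236, 24 to 27 against tazemetostat and 16 to 19 for the interaction. In SW1990 they were 22 to 25 for RMC-6236, 25 to 28 for tazemetostat, 28 to 32 for the combination, 25 to 29 for the combination against RMC-6236, 26 to 30 against tazemetostat and 7 to 18 for the interaction. The cause of the moves beyond 1.5 times, in the SW1990 interaction and the tumour combination against RMC-6236, was not tested beyond the number of libraries. Depth is unknown, so counting error could not be set beside the spread of low members such as FADS2 in PSN1.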

Other observations

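Glycerolipid synthesis uses new fatty acids for triglycerides and phospholipids. With tazemetostat against control, 3 of its 6 genes rose in PSN1, 4 in SW1990 and 4 in KPC cells, with none lower (limma, adjusted p under 0.05), where 23.6%, 23.1% and 18.6% of all genes rose. In tumours none of 6 was called by limma and none had an unadjusted p under 0.05. Dgat2, an acyltransferase of the last step to triglycerides, stood at 0.335, 0.712 and 0.394 FPKM in KPC control cells, 1.30, 1.66 and 1.41 FPKM with tazemetostat, 0.550, 0.514 and 0.404 FPKM with RMC-6236 and 2.34, 2.35 and 2.16 FPKM with the combination. Both arms with tazemetostat lay above both arms without it (log2 change 0.74, SE 0.09, adjusted p = 4e-05, and for the combination against RMC-6236 log2 change 1.14, SE 0.09, adjusted p = 6.7e-07). All Dgat2 libraries without tazemetostat were under the 1 FPKM filter. The gene passed that filter only through the arms with the drug, so these tests are not independent of it. DGAT2 also rose in SW1990, by 0.46 with tazemetostat and 0.55 for the combination against RMC-6236. In PSN1 its change with tazemetostat was -0.12 (adjusted p = 0.06), and LPIN1, a phosphatidate phosphatase, led there, at 3.88, 3.85 and 3.51 FPKM in control, 4.69, 4.98 and 4.98 FPKM with tazemetostat, 6.61, 6.64 and 6.86 FPKM with RMC-6236 and 12.9, 12.8 and 12.6 FPKM with the combination.

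ELOVL7, an elongase of long saturated chains, rose with tazemetostat in all 3 cell systems, by 0.98 in PSN1, 0.31 in SW1990 and 0.33 in KPC cells on the log2 scale (adjusted p = 1.2e-08, 0.011 and 2e-04). In PSN1 it went from 0.0677, 0.0625 and 0.0968 FPKM in control to 1.07, 1.08 and 1.20 FPKM with tazemetostat, with no overlap. The PSN1 control libraries were under the 1 FPKM filter. ELOVL7 passed that filter there through treated arms, so its test is not independent of it. MLXIPL rose with tazemetostat in both human lines, by 0.54 and 0.48. In SW1990 control cells it too lay under the filter and passed through treated arms. Of the fatty acid oxidation genes, 7 of 10 fell and 1 rose with tazemetostat in PSN1, where 22.5% of all genes fell and 23.6% rose. In SW1990 4 of 10 fell and 2 rose (14.4% and 23.1% of all genes), and in KPC cells 5 of 9 fell and 2 rose (25.5% and 18.6%). In tumours none of 9 was called by limma and none had an unadjusted p under 0.05.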
